A study of Mus musculus with 4 samples.

Results

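The insulin-like growth factor (IGF) family was followed in cultured mouse bone marrow MSPC, or mesenchymal stem/progenitor cells, which are fibroblast-like and grow out of marrow. It comprised 10 genes of 23997 with distinct symbols: the ligands Igf1 and Igf2, the receptors Igf1r and Igf2r, and the binding proteins Igfbp2 to Igfbp7. Members were taken by symbol from a table of FPKM, fragments scaled to transcript length and library size. Each symbol had a single row, so the rule to keep the row with the highest mean chose nothing here. Total RNA of 4 libraries was sequenced, 2 from wild-type (WT) and 2 from Asxl1-/- cultures, both on a C57BL/6 background. Asxl1 encodes a chromatin regulator that binds the histone deubiquitinase BAP1. Cells were between passages 5 and 10, with no passage given per library, and grew in MesenCult medium with 20% of its supplement. How the Asxl1-/- allele was made, and whether the cultures of a group came from separate animals, is not given in the sources used here, so a p-value here covers only how these libraries spread, which may be technical.

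Igf1 and Igf2 are secreted growth factors that signal growth and survival through the tyrosine kinase Igf1r. Igf2r binds Igf2 and carries it to lysosomes without such a signal. Binding proteins hold the ligands in the extracellular fluid and block or prolong their action, and stromal and bone-forming cells are a known source of several of them. Igfbp7 binds IGFs weakly and is often counted as a related protein.

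Asxl1 itself stood at 14.6 and 11.2 FPKM in WT and at 0.273 and 0.312 FPKM in Asxl1-/-, so the levels follow the labels. How many reads each library held is unknown. Steps in the low values put the depths at 0.956 to 1.03 times that of WT replicate 1. The search was held to ratios near equal, so a large difference in depth could not have shown. Rows under 300 bp held 21.4% to 24.9% of the summed FPKM in 3 libraries and 40.9% in WT replicate 2. The 15 stromal markers summed to 6423 to 9017 FPKM, mostly from genes such as Col1a1 at 1298 to 2043, and were uneven beyond that. Lepr, a marker of marrow stroma, was at most 0.0426 FPKM, and Pdgfra stood at 4.78 in WT replicate 2 against 58.8 to 80.9 in the other libraries. Nt5e stood at 2.31 and 7.19 FPKM in WT and at 0.493 and 0.507 in Asxl1-/-, and Eng at 10.7 and 0.912 in WT and at 0.906 and 0.571 in Asxl1-/-. Pdgfrb stood at 86.9 and 49.2 FPKM in WT and at 103 and 135 in Asxl1-/-, and Cxcl12 at 641 and 744 against 1297 and 947. Of the 14 tested stromal markers, 3 lay higher in both Asxl1-/- libraries than in WT and 5 lower. Over all tested genes these shares were 15.6% and 25.2%. The log2 differences were positive for 7 of these markers and negative for 7. Macrophage markers differed between cultures of the same genotype. Their 15 measured genes summed to 7.64 and 556 FPKM in WT replicates 1 and 2 and to 14.7 and 381 in Asxl1-/- replicates 1 and 2. For 14 of the 15, both replicates 2 lay above both replicates 1. In the same order of libraries the osteoblast markers summed to 1378, 2589, 776 and 2288 FPKM, nearly all of it Spp1. All 5 tested osteoblast markers had negative log2 differences, with a median of -1.14, and so did 6524 of all 11481 genes tested. Runx2, Alpl and Dmp1 were lower in both Asxl1-/- libraries, like 25.2% of all genes. Alpl stood at 0.214 and 5.03 FPKM in WT and Dmp1 at 0.806 and 5.60, so both rested mainly on WT replicate 2. Runx2, the osteoblast transcription factor, stood at 13.6 and 17.6 FPKM in WT and at 5.73 and 7.32 in Asxl1-/-, and none of the 5 passed the limma adjusted threshold. Adipocyte markers summed to 169, 69.4, 219 and 35.6 FPKM, and smooth muscle and pericyte markers to 678, 2023, 1210.4 and 1887. Their part in the results was not tested.

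Genes averaging 1 FPKM or more were compared by limma on log2(FPKM + 1), Asxl1-/- minus WT, with Benjamini-Hochberg adjustment over all 11481 of them at 0.05. Of the family, 9 members passed the filter and Igfbp5 did not. None of the 9 passed the adjusted threshold, which 0.0261% of all genes passed. Asxl1 itself missed it too, at a log2 difference of -3.41 (limma adjusted p = 0.215), so a miss does not show an unchanged level. Of the 9, 2, Igfbp4 and Igfbp7, had an unadjusted p under 0.05, both higher in Asxl1-/-. At that level 7.92% of all genes stood out, 2.51% higher and 5.41% lower. The groups did not overlap for 4 of the 9, against 40.8% of all genes. Igfbp4 and Igfbp7 were higher in both Asxl1-/- libraries, like 15.6% of all genes, and Igf2r and Igfbp3 were lower, like 25.2%. Higher genes made up 38.3% of all genes without overlap, 49.2% with median ratio scaling and 50.6% with quantile normalization. Of the genes at an unadjusted p under 0.05 they made up 31.7%, 43.3% and 42.9%. The median log2 fold change was 0.03 over the 9 members and -0.07 over all genes. The family was selected on earlier results of these libraries, namely FPKM differences between WT and Asxl1-/-, so these counts describe it and nothing is read from them. In bulk RNA, fewer cells of a type and less RNA per cell cannot be told apart.

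**Figure D1:**
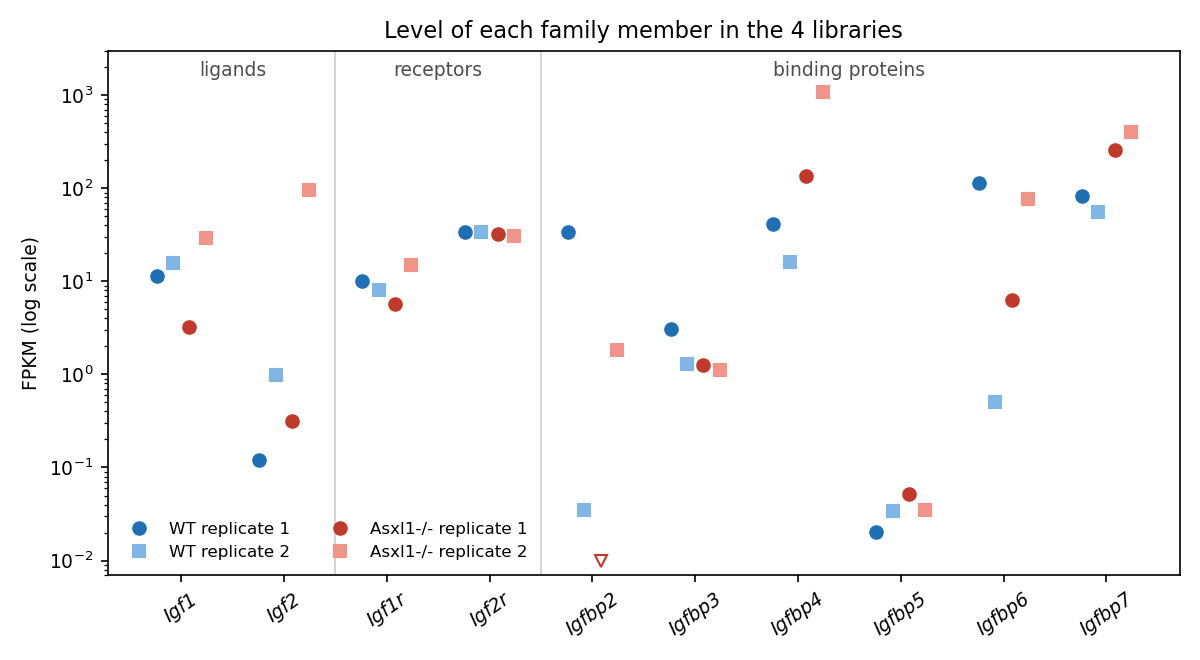
FPKM of the 10 family members on a log axis, with 1 symbol per library (circles replicate 1, squares replicate 2; the open triangle marks Igfbp2, listed at 0 in Asxl1-/- replicate 1). Igf2r holds between 30.5 and 33.9 FPKM in all 4 libraries, whereas Igfbp4 runs from 16.2 to 1089 FPKM.

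Igf1 (mm10 chromosome 10, 87859056 to 87937047, plus strand), the main postnatal ligand, stood at 11.4 and 15.7 FPKM in WT and at 3.19 and 29.2 in Asxl1-/-. The Asxl1-/- libraries thus flanked both WT libraries, and the groups overlapped. Mean FPKM was 13.6 ± 3.06 in WT and 16.2 ± 18.4 in Asxl1-/- (SD, n = 2 per group). On the log2 scale the difference was -0.36 with a standard error of 0.97 (limma adjusted p = 0.938). It was 1.07 without Asxl1-/- replicate 1 and -1.78 without Asxl1-/- replicate 2. Within each genotype the library with more macrophage marker RNA also had more Igf1, a growth factor that macrophages make too. With the mean log2 level of the macrophage markers as a covariate the difference was -0.25. These markers ran from low to high in both genotypes, so the covariate could hardly move a difference between genotypes. The part of these cells in the Igf1 level itself was not tested.

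Igf2 (chromosome 7, 142650768 to 142661035, minus strand), the fetal ligand, is imprinted and read from the paternal copy. It stood at 0.120 and 0.992 FPKM in WT and at 0.318 and 96.1 in Asxl1-/-. A single library, Asxl1-/- replicate 2, carried nearly all of it, and the other Asxl1-/- library lay between the WT libraries. The log2 difference was 2.92 with a standard error of 2.08 (limma adjusted p = 0.750). In the authors' deposited table Igf2 is marked significant, with group values of 0.660 and 60.7 FPKM and a q of 0.00836. In that library Igf2 made up 76.7% of the summed ligand FPKM, against 1.04% and 5.93% in WT and 9.05% in Asxl1-/- replicate 1. H19, the maternally read neighbour that shares an imprinting control with Igf2, did not stand out in the same library. H19 stood at 3.88 FPKM in WT replicate 1, was listed at 0 in WT replicate 2, and stood at 0.661 and 2.98 in Asxl1-/-. Macrophage markers were high in Asxl1-/- replicate 2 and in WT replicate 2. Within each genotype that library also had more Igf2, 0.992 against 0.120 FPKM in WT and 96.1 against 0.318 in Asxl1-/-. With the macrophage markers as a covariate, which could hardly move a genotype difference, the log2 difference was 3.16. Without Asxl1-/- replicate 1 the log2 difference was 6.02, and without Asxl1-/- replicate 2 Igf2 did not reach the filter. Among 8 endothelial markers that library alone held Cdh5, at 7.11 FPKM, while Tie1, Emcn and Cldn5 were listed at 0 everywhere and Pecam1 was listed at 0 there. The part of macrophages or of endothelial cells in the Igf2 level was not tested.

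Igf1r (chromosome 7, 67952257 to 68233667, plus strand), the signalling receptor, stood at 10.2 and 8.13 FPKM in WT and at 5.65 and 15.1 in Asxl1-/-. As for Igf1, the Asxl1-/- libraries lay on either side of WT. Asxl1-/- differed from WT by 0.03 on the log2 scale, with a standard error of 0.48 (limma adjusted p = 0.991). It was -0.60 without Asxl1-/- replicate 2, -0.11 without WT replicate 2 and 0.67 without Asxl1-/- replicate 1.

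Igf2r (chromosome 17, 12682406 to 12769706, minus strand), the clearance receptor, stood at 33.8 and 33.9 FPKM in WT and at 32.1 and 30.5 in Asxl1-/-. The values lay close together, and although the groups did not overlap, the difference was small. Mean FPKM was 33.8 ± 0.0789 in WT and 31.3 ± 1.11 in Asxl1-/- (SD, n = 2 per group), and the log2 difference was -0.11 with a standard error of 0.22 (limma adjusted p = 0.910). After median ratio scaling it was -0.02 and the groups overlapped. The WT libraries were closer to each other than for 99.1% of all genes tested. Igf2r is imprinted, and its row shares 28396 bp with Airn, the antisense RNA that silences it on the paternal copy. Strandedness is not given, so some reads in that stretch may have been counted for the other gene. Airn stood at 11.6 and 6.49 FPKM in WT and at 4.01 and 5.56 in Asxl1-/-. The ratio of Igf2r to Igf1r FPKM was 3.32 and 4.17 in WT and 5.68 and 2.02 in Asxl1-/-.

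Igfbp4 (chromosome 11, 99041260 to 99052643, plus strand) encodes a binding protein known mainly as an inhibitor of IGF action, released when the protease Pappa cleaves it. It stood at 40.9 and 16.2 FPKM in WT and at 136 and 1089 in Asxl1-/-. The groups did not overlap, but the Asxl1-/- libraries lay far apart. Mean FPKM was 28.5 ± 17.5 in WT and 612 ± 673 in Asxl1-/- (SD, n = 2 per group). On the log2 scale this was 3.85 higher (standard error 1.10), and the limma adjusted p of 0.562 missed the threshold. It was 2.35 without Asxl1-/- replicate 2 and 5.34 without Asxl1-/- replicate 1. The authors' deposited table marks Igfbp4 as significant (q = 0.00836) and gives its log2 fold change as 4.56. Among all genes Igfbp4 ranked 44th by FPKM in Asxl1-/- replicate 2 and 496th in Asxl1-/- replicate 1, against 1777th and 4110th in WT.

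Igfbp7 (chromosome 5, 77349240 to 77408045, minus strand), a secreted protein of stromal and vascular cells, stood at 81.6 and 54.9 FPKM in WT and at 258 and 404 in Asxl1-/-. The groups did not overlap. The libraries lay 0.56 apart in WT and 0.65 apart in Asxl1-/- on the log2 scale, above the medians of 0.38 and 0.31 over all genes. Mean FPKM was 68.3 ± 18.9 in WT and 331 ± 104 in Asxl1-/- (SD, n = 2 per group), a ratio of 4.85. The log2 difference of 2.25 had a standard error of 0.36 (limma adjusted p = 0.474). It ran from 1.93 to 2.58 with a library left out. With the macrophage covariate, which could hardly move a genotype difference, it was 2.25. The authors' deposited table gives Igfbp7 a q of 0.155 and a log2 fold change of 2.40, not significant there. Its row shares 89 bp with Polr2b on the other strand, an RNA polymerase subunit gene, which stood at 31.5 and 21.4 FPKM in WT and at 19.7 and 21.1 in Asxl1-/-.

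The 250 bases before the RefSeq start of Igfbp4 and Igfbp7 are shown because these members stood higher in both Asxl1-/- libraries, and those of Igf2r because it was the steadiest tested member between libraries. All are from build GRCm38.p6 and read 5′ to 3′ on the gene's strand. Igfbp4 lies at chr11:99040994-99041243 on the plus strand. Igfbp7 lies at chr5:77408046-77408295 and Igf2r at chr17:12769707-12769956, both on the minus strand. Capitals mark the GC box GGGCGG and the TATA box TATAAA, on either strand.
Igfbp4: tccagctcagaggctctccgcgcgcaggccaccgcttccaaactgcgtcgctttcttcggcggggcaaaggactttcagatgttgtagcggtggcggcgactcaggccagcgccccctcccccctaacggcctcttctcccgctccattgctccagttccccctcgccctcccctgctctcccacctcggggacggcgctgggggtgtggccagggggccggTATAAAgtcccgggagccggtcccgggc
Igfbp7: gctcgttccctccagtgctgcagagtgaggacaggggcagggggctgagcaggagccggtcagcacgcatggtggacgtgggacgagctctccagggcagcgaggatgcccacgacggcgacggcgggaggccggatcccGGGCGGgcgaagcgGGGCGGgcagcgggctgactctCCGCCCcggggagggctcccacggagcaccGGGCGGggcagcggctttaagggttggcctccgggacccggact
Igf2r: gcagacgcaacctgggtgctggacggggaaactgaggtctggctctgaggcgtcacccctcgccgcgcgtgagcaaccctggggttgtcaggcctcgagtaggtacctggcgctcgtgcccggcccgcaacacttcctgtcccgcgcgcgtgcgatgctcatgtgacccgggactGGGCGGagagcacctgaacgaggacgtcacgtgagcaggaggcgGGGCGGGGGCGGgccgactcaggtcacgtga
The Igfbp4 window held 1 TATAAA and 0 GGGCGG, the Igfbp7 window 4 GGGCGG and 0 TATAAA, and the Igf2r window 3 GGGCGG and 0 TATAAA. The members that were higher together thus did not share these letters. Of 32851 windows of this length, 32.7% held GGGCGG and 12.4% held TATAAA. All 3 windows were rich in CG dinucleotides, with 22 before Igfbp4, 26 before Igfbp7 and 27 before Igf2r, where the median window held 6. A match describes the letters and shows no binding.

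Igfbp6 (chromosome 15, 102144186 to 102149512, plus strand), a binding protein that prefers Igf2, stood at 113 and 0.509 FPKM in WT and at 6.36 and 76.1 in Asxl1-/-. It was high in 1 library of each genotype and low in the other, and the groups overlapped. The WT libraries differed by 222 times and the Asxl1-/- libraries by 12.0 times. A log2 difference of 0.86 had a standard error of 2.35 (limma adjusted p = 0.938), and it was -2.26 without WT replicate 2 and 3.98 without WT replicate 1. Of the libraries high in Igfbp6, WT replicate 1 was low in macrophage markers (7.64 FPKM) and Asxl1-/- replicate 2 high (381 FPKM), and the part of these cells was not tested.

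Igfbp2 (chromosome 1, 72824480 to 72852471, plus strand), an IGF inhibitor that also binds integrins, stood at 33.6 and 0.0351 FPKM in WT. In Asxl1-/- replicate 1 it was listed at 0, as were 1 to 3 of 80 ribosomal protein genes in each library, and in replicate 2 it stood at 1.84. WT replicate 1 alone was high, and WT replicate 2 lay below Asxl1-/- replicate 2. Asxl1-/- differed from WT by -1.83 on the log2 scale, with a standard error of 1.77 (limma adjusted p = 0.814). It was -4.36 without WT replicate 2, -2.58 without Asxl1-/- replicate 2 and -1.07 without Asxl1-/- replicate 1. Without WT replicate 1 the gene did not reach the filter. In the authors' deposited table Igfbp2 had group values of 18.9 and 1.16 FPKM and a q of 0.110.

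Igfbp3 (chromosome 11, 7206091 to 7213923, minus strand), the main IGF carrier of blood, stood at 3.09 and 1.30 FPKM in WT and at 1.26 and 1.13 in Asxl1-/-. The groups did not overlap, but WT replicate 2 and Asxl1-/- replicate 1 were nearly equal. The log2 difference was -0.49 with a standard error of 0.43 (limma adjusted p = 0.797), and -0.07 without WT replicate 1. After quantile normalization it was -0.26 and the groups overlapped. Its neighbour Igfbp1, 3544 bp away, was listed at 0 in all 4 libraries.

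Igfbp5 (chromosome 1, 72858065 to 72874865, minus strand), a binding protein often found in bone matrix, was near 0 in these cells. It stood at 0.0201 and 0.0341 FPKM in WT and at 0.0521 and 0.0351 in Asxl1-/-, and was not tested. Igfbp5 lies 5593 bp from Igfbp2 in tail-to-tail orientation. In WT replicate 1 Igfbp2 reached 33.6 FPKM beside 0.0201 for Igfbp5.

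**Figure D2:**
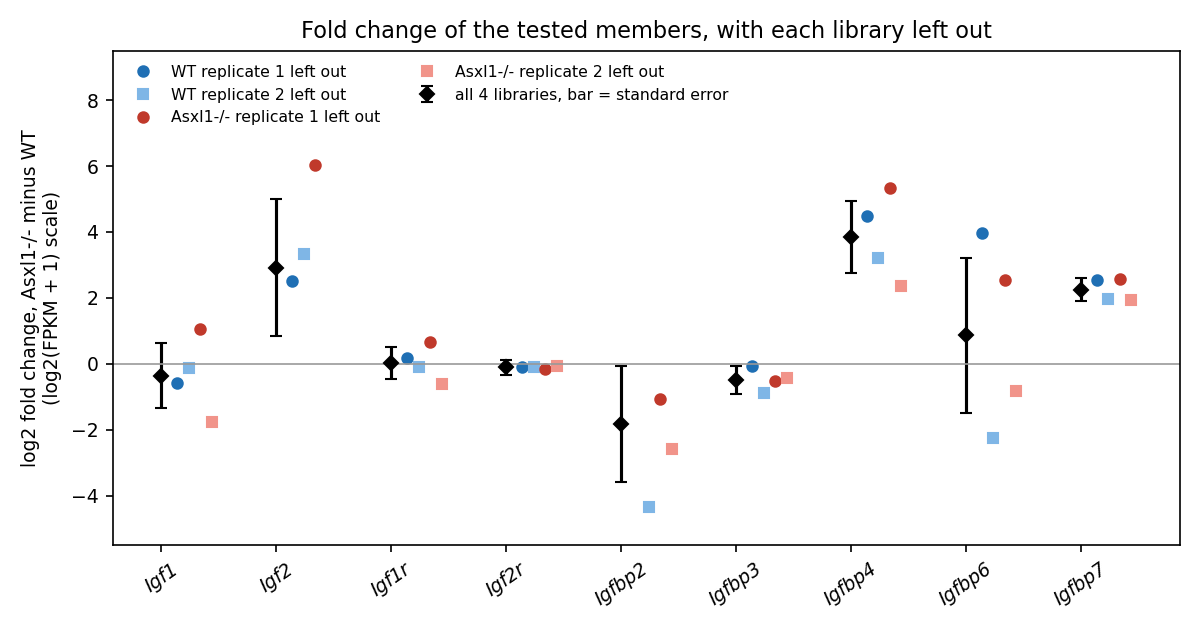
Log2 fold change (Asxl1-/- minus WT, on log2(FPKM + 1)) of the 9 tested members, with black diamonds for all 4 libraries, bars for the standard error and coloured symbols for fits that leave out 1 library. Igfbp4 and Igfbp7 stay above 0 in every fit and Igf1, Igf1r and Igfbp6 change sign; Igf2 without Asxl1-/- replicate 2 and Igfbp2 without WT replicate 1 did not reach the filter.

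FPKM are per length, so levels can be set side by side between genes. By the mean FPKM over the 4 libraries the order was Igfbp4 at 320.4, Igfbp7 at 199.7, Igfbp6 at 49.0, Igf2r at 32.6, Igf2 at 24.4, Igf1 at 14.9, Igf1r at 9.75, Igfbp2 at 8.87, Igfbp3 at 1.69 and Igfbp5 at 0.0354. The ranges of neighbours in this order overlapped from Igfbp4 to Igfbp3, and the ranges of Igfbp3 and Igfbp5 did not. The order differed by library, since Igfbp6 led in WT replicate 1, Igfbp7 in WT replicate 2 and Asxl1-/- replicate 1, and Igfbp4 in Asxl1-/- replicate 2.

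The summed FPKM of Igfbp2 to Igfbp7 was 272 and 73.0 in WT and 402 and 1572 in Asxl1-/-, so the groups did not overlap. The sum holds Igfbp4 and Igfbp7, each already higher in both Asxl1-/- libraries, so it is no separate result. Among all tested genes, 15.6% were higher without overlap. Igfbp4 made up 15.0% and 22.2% of the sum in WT and 33.9% and 69.2% in Asxl1-/-. Igfbp7 made up 30.0% and 75.2% in WT and 64.2% and 25.7% in Asxl1-/-, and these shares overlapped. Igfbp6 held 41.5% and Igfbp2 12.3% in WT replicate 1 and at most 4.84% and 0.117% in the other libraries. Without Igfbp7 the sum was 191 and 18.1 in WT and 144 and 1168 in Asxl1-/-, and the groups then overlapped. Without Igfbp4 it was 231 and 56.8 in WT and 265 and 484 in Asxl1-/-. The ratio of binding protein to ligand FPKM was 23.6 and 4.37 in WT and 114 and 12.5 in Asxl1-/-, again with overlap.

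**Figure D3:**
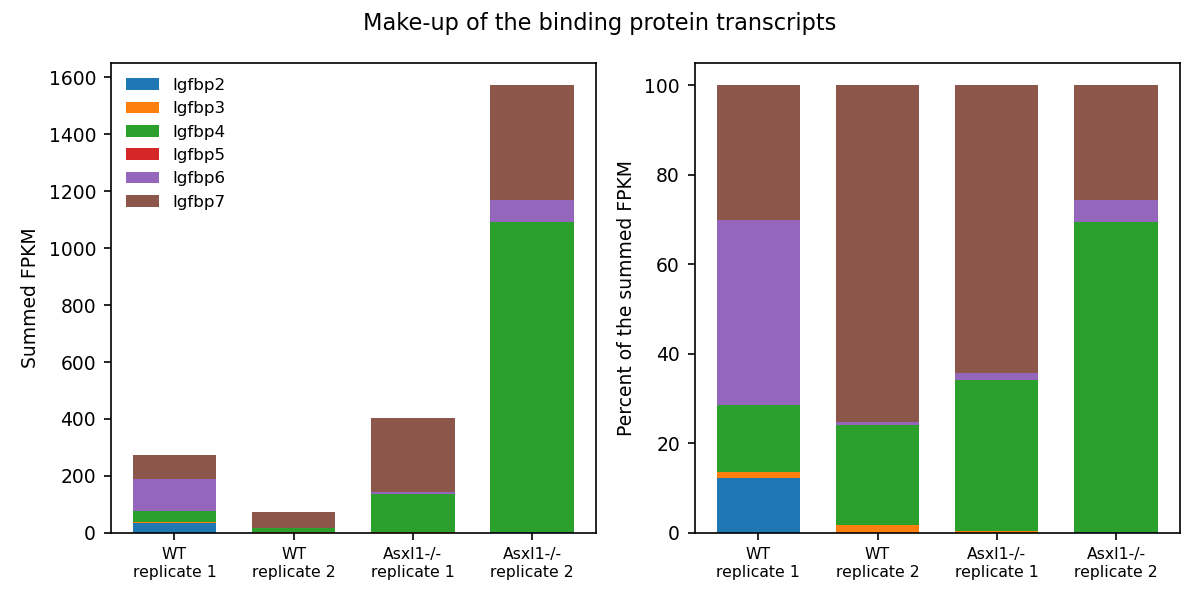
Summed FPKM of Igfbp2 to Igfbp7 in each library (left) and the percent held by each gene (right), with 1 bar per library. The Asxl1-/- bars reach 402 and 1572 FPKM against 272 and 73.0 in WT, and Igfbp4 holds 69.2% of the bar of Asxl1-/- replicate 2.

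Several members differed widely between cultures of the same genotype. In WT, 2 of the 9 tested members, Igfbp2 and Igfbp6, lay at least 2 apart on the log2 scale, against 3.74% of all genes. In Asxl1-/-, 4 of the 9 did so, namely Igf1, Igf2, Igfbp4 and Igfbp6, against 3.93% of all genes. The family was selected on FPKM differences in these same libraries, so these counts too describe it and nothing is read from them. The median distance between libraries over all genes was 0.38 in WT and 0.31 in Asxl1-/-. Igfbp6 was 6.24 apart in WT, which 0.131% of genes exceeded, and Igf2 6.20 apart in Asxl1-/-, which 0.174% exceeded. Igf2r was 0.07 apart in Asxl1-/- and Igfbp7 0.65.

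For each member that spanned at least 2 on the log2 scale, the tested genes with the closest pattern over the 4 libraries were listed, by Euclidean distance of log2(FPKM + 1) centred on each gene's mean. This describes 4 libraries. Next to Igfbp4 were the transcription factor gene Ebf2 (distance 0.99) and the basement membrane collagens Col4a1 (1.03) and Col4a2 (1.23). Col4a2 stood at 54.4 and 26.4 FPKM in WT and at 213 and 611 in Asxl1-/-. Next to Igfbp7 were the kinase scaffold Akap12 (0.11), the interleukin receptor kinase gene Irak3 (0.20) and haptoglobin, Hp (0.22). Akap12 stood at 25.1 and 16.8 FPKM in WT and at 88.8 and 127 in Asxl1-/-. Next to Igf1 were Sema3f (0.15), Smpdl3a (0.28) and Obsl1 (0.35), and Sema3f, a guidance factor, stood at 4.81, 7.07, 0.869 and 11.7 FPKM in the order given for Igf1. Igf2 had more distant neighbours, P2ry14 (1.32), Sorbs2 (2.02) and Pcdhgb4 (2.22). P2ry14, a nucleotide sugar receptor, reached 46.8 FPKM in Asxl1-/- replicate 2 and at most 0.935 elsewhere. Igfbp6 was closest to the immediate early gene Fosb (0.82), the cytokine Il33 (1.02) and the chemokine receptor Ackr3 (1.73). Il33 stood at 30.2 and 0.0999 FPKM in WT and at 1.78 and 31.7 in Asxl1-/-. Igfbp2 was closest to Cxcl5 (0.65), the water channel Aqp1 (0.69) and Srpx (0.85), and Aqp1 stood at 54.8 FPKM in WT replicate 1 and at most 5.01 elsewhere.

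Around the family, other ligands, receptors and binding proteins were mostly not seen. Of 7 such genes, Igfbp1, Igfbpl1, Ins1, Ins2 and Insrr were listed at 0 in all libraries and Igfals reached at most 0.121 FPKM. The insulin receptor Insr, which also binds Igf2, was the one tested, at 7.62 and 6.07 FPKM in WT and 6.26 and 6.86 in Asxl1-/-.

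Regulators of the binding proteins and of Igf2 RNA held 11 genes, all tested. None passed the adjusted threshold in limma, 1 had an unadjusted p under 0.05, beside 7.92% of all genes, and the median log2 difference was -0.24, with 5 positive and 6 negative. That 1 was Igf2bp3, a fetal RNA-binding protein that binds Igf2 mRNA. Igf2bp3 stood at 5.20 and 3.67 FPKM in WT and at 13.0 and 11.9 in Asxl1-/-, with no overlap. Its log2 difference was 1.32 with a standard error of 0.26 (limma adjusted p = 0.502). Its relative Igf2bp2 stood at 33.2 and 27.0 FPKM in WT and at 25.1 and 21.1 in Asxl1-/-. Htra1, a protease that can cleave binding proteins, stood at 46.2 and 11.6 FPKM in WT and at 46.3 and 46.6 in Asxl1-/-, so WT replicate 2 alone was low. Pappa2, a protease of Igfbp5, stood at 4.39 and 0.367 FPKM in WT and at 0.0877 and 0.250 in Asxl1-/-. Pappa, the protease of Igfbp4, spanned 0.0136 to 4.11 FPKM, both ends in Asxl1-/-.

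Transducers of the IGF signal held 33 genes, all tested. None passed the adjusted threshold in limma and 1 had an unadjusted p under 0.05. Without overlap, 3 were higher in Asxl1-/- and 8 lower, beside 15.6% and 25.2% of all genes, and the median log2 difference was -0.10. These shares, and the 1 gene beside 7.92% of all genes, were near or under the background. The 1 was Grb14, an adaptor that inhibits the insulin receptor, at 31.2 and 39.0 FPKM in WT and at 3.09 and 12.6 in Asxl1-/-. Its log2 difference was -2.27 with a standard error of 0.62 (limma adjusted p = 0.552). The adaptor Shc1 stood at 87.6 and 56.9 FPKM in WT and at 41.9 and 50.7 in Asxl1-/-. The kinase subunit Pik3r2 stood at 37.0 and 26.7 FPKM in WT and at 22.4 and 18.2 in Asxl1-/-, and the S6 kinase Rps6kb1 at 11.2 and 16.4 against 19.1 and 24.1.

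Of 12 target genes of the Foxo factors, which IGF signalling holds in check, none passed in limma and 1 had an unadjusted p under 0.05. Without overlap, 0 were higher and 2 lower, beside 15.6% and 25.2% of all genes, and the median log2 difference was -0.17. The 1 gene stood beside 7.92% of all genes, so these counts too were near or under the background. The thioredoxin inhibitor Txnip, the 1 at that level, stood at 86.9 and 64.2 FPKM in WT and at 25.0 and 48.7 in Asxl1-/- (log2 difference -1.07, standard error 0.40). Sestrin Sesn3 stood at 17.2 and 17.7 FPKM in WT and at 4.38 and 12.6 in Asxl1-/-. The groups overlapped for Bcl6, at 7.64 and 5.81 against 2.58 and 6.39 FPKM, and for Klf15, at 1.32 and 0.0186 against 1.17 and 1.90.

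**Figure D4:**
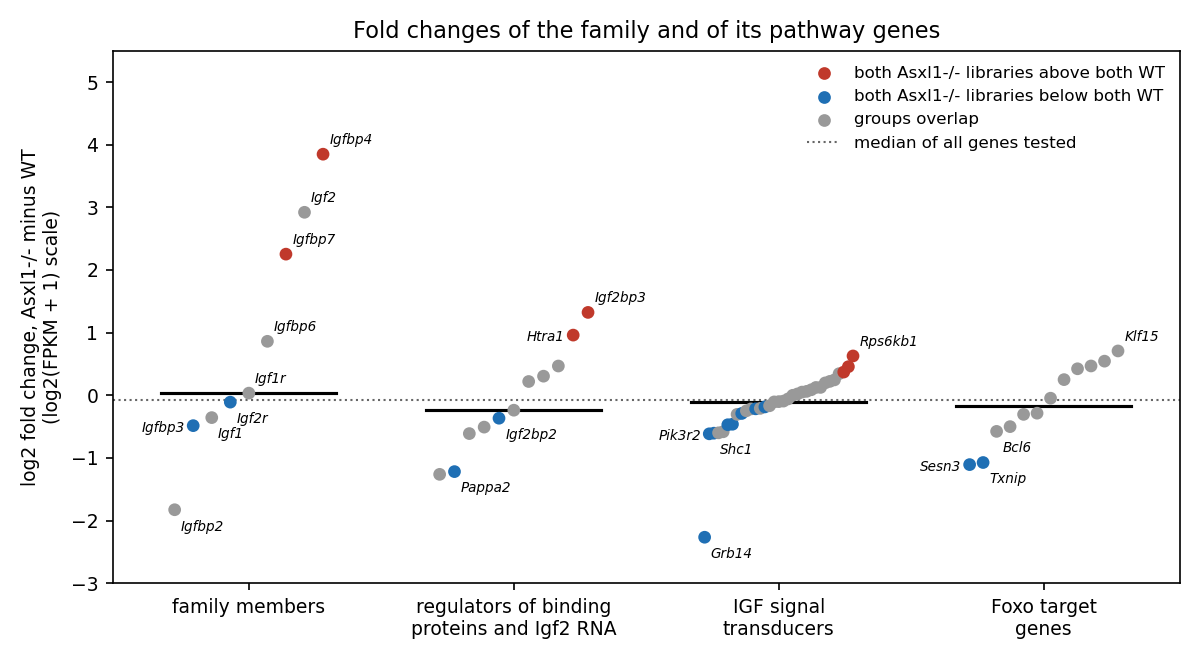
Log2 fold changes (Asxl1-/- minus WT, on log2(FPKM + 1)) of the tested family members and of 3 lists of pathway genes, 1 point per gene, coloured by whether the libraries of the groups overlap, with a bar at each list's median. Igfbp4 at 3.85 and Grb14 at -2.27 are the ends of the plot, and the list medians lie between -0.24 and 0.03, beside -0.07 for all genes.

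The authors' deposited table, made from the same libraries, tested 9 of the 10 members and marks 2 as significant, Igf2 and Igfbp4, both higher in Asxl1-/-. It marks 0.939% of all its tested genes, 0.543% higher and 0.396% lower. In the authors' deposited table Igf1, Igf1r, Igf2r, Igfbp3 and Igfbp6 each had a q of 0.999. Its log2 fold change was 0.36 for Igf1 and -0.30 for Igfbp6, in each case opposite in sign to the limma value. The measures are unlike, since the authors' value compares group FPKM and limma compares means of log2(FPKM + 1). The ratio of mean FPKM, Asxl1-/- to WT, was 1.19 for Igf1 and 0.727 for Igfbp6.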

How the data were processed

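The submitters' processing notes name build mm10, Cuffdiff, Cufflinks (version 2.2.1) and TopHat2 (version 2.0.3). For annotation, library kit and strandedness, the sources used here say nothing. The deposited FPKM table is per library, per the file headers. The deposited Cuffdiff table gives group FPKM, a log2 fold change, a p-value and a q-value by the authors. A log copy of the FPKM table was not used, nor were 4 per-sample columns whose names fit none of the samples.

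Groups follow the genotype label, and replicates are numbered in accession order, which pairs no samples. For symbols with several rows the row with the highest mean was kept. File starts plus 1 matched a GENCODE M21 transcript start for 11996 of 22694 genes, against 1033 without, so 1 was added. Genes averaging 1 FPKM or more were fitted by lmFit and eBayes with trend (limma 3.58.1 in R 4.3.3) on log2(FPKM + 1). That scale understates changes of low genes. The script was tested on simulated data with the same spread for every gene, which checks the code and not how the fit behaves on these libraries. Alternatives were quantile normalization, median ratio scaling, other pseudocounts (0.1, 0.5), a filter at 5 FPKM or none, rescaling without rows under 300 bp, eBayes without trend or robust, a macrophage marker covariate, and each library left out. Upstream sequences of all 10 members matched RefSeq windows (GRCm38.p6); bases after the start were left out. Named genes are all members, Asxl1, up to 4 tested genes per pathway list with the smallest p, and the 3 closest genes by distance; Pappa, H19, Airn, Polr2b and the single markers were picked for their position or role with values in view. Members and lists were chosen with earlier results of these data known. Tables and figures used matplotlib 3.10.9, numpy 2.4.6 and pandas 2.3.3 under Python (version 3.11.15).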

Additional observations from a re-analysis of the deposited data

How the results depend on the processing

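No member passed the adjusted threshold under any of the 14 alternatives; the lowest limma adjusted p was 0.413, for Igfbp7. Igf2, Igf2r, Igfbp2, Igfbp3, Igfbp4 and Igfbp7 kept their sign wherever they could be fitted, which was not the case for Igf2 without Asxl1-/- replicate 2 and for Igfbp2 without WT replicate 1. With a library left out, the log2 difference ran from -1.78 to 1.07 for Igf1, from -0.60 to 0.67 for Igf1r and from -2.26 to 3.98 for Igfbp6. Members higher without overlap numbered 2 to 5 and members lower 2 to 5 with a library left out, where a group of 1 library also raised the share over all genes, to between 27.9% and 31.0% higher and between 37.8% and 45.4% lower. Lower ones numbered 1 at a mean of at least 5 FPKM, where Igfbp3 did not reach the filter and was not tested, 1 with median ratio scaling and 1 with quantile normalization. Over all genes, 0 to 4 were called higher and 3 to 6 lower with a library left out, where the lone library of a group is assumed to vary like the others. With no filter 1 gene was called lower, and 0 when rescaled without rows under 300 bp. No paired analysis was possible because the labels give the groups no shared replicate numbers. Depth is unknown, so values near 0, as for Igfbp5, cannot be given a counting error.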

Other observations

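The nearest tested genes on either side of each member were looked up, and those next to Igfbp4, Igfbp6 and the Igfbp2 and Igfbp5 pair are given here, picked with their values in view. Beside Igfbp4, the DNA topoisomerase gene Top2a, 17070 bp away, stood at 54.1 and 40.1 FPKM in WT and at 19.1 and 23.9 in Asxl1-/-. Smarce1, a subunit of a chromatin remodelling complex on the other side of Igfbp4, stood at 35.1 and 38.6 FPKM in WT and at 49.4 and 39.9 in Asxl1-/-. Top2a was thus lower in both Asxl1-/- libraries, like 25.2% of all genes, and Smarce1 higher, like 15.6%. Beside Igfbp6, whose WT libraries differed by 222 times, Spryd3, 7970 bp away, stood at 18.1 and 20.4 FPKM in WT and at 30.1 and 24.7 in Asxl1-/-. Csad, on its other side, stood at 15.6 and 13.2 FPKM in WT and at 19.1 and 13.1 in Asxl1-/-. Tns1, 1035365 bp beyond Igfbp5, encodes an actin-binding adhesion protein and stood at 6.70 and 15.8 FPKM in WT and at 33.3 and 40.5 in Asxl1-/-. None of these 5 genes passed the limma adjusted threshold, and the adjusted p of both Top2a and Tns1 was 0.543.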
